A study of Debaryomyces hansenii with 6 samples.

Results

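Debaryomyces hansenii is a yeast that tolerates high salt. A set of 50 of the 6320 genes on the array had a higher transcript level after 6 h in 2 M NaCl than before the salt was added. Their level at 0.5 h and 3 h lay near that starting point. The 6320 are all gene names on the array outside its control spots, and 5348 of them matched a locus name of this yeast. The 50 genes were chosen by their ratios on these same arrays. Their mean log2 ratio of salt over control was at least 0.7 at 6 h, with both 6 h arrays above 0, while the mean was less than 0.35 from 0 at 3 h and lay between -0.4 and 0.5 at 0.5 h. Of the 50 genes, 45 had a locus name in the reference table and 5 had none. The array files describe each gene as unknown and the table gives no symbol beyond the locus name, so the loci below carry no role.

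The yeast was grown in batch in YPD, a rich medium with glucose, at 30 °C with shaking to early log phase, and the labels used here give no strain. NaCl was then added to 2 M and cells were collected 0.5, 3 and 6 h later. All 3 groups of salt-treated RNA were compared with RNA of an aliquot taken at time 0, and no untreated culture of a later time was on the arrays, so time in culture and salt cannot be told apart. Each time had 2 2-colour Agilent arrays, on which 2 RNAs labelled with the dyes Cy3 and Cy5 compete for the same spots. In replicate 1 the salt RNA carried Cy5 and in replicate 2, made from other biological replicates of both RNAs, it carried Cy3. Replicate and dye orientation are thus the same split, and a difference between replicates cannot be told apart from one between dyes. Every ratio here is a log2 ratio of salt over control after background correction and normalization within the array, averaged over the 2 probes of a gene, and SDs are between the 2 arrays of a time.

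Yeasts meet high external salt by closing the gap in osmotic pressure. In Saccharomyces cerevisiae the high osmolarity glycerol pathway, ending in the kinase Hog1, raises glycerol synthesis and turns on stress genes, and many of those transcripts return toward their starting level once the cells have adapted. D. hansenii also accumulates glycerol and tolerates high sodium inside the cell, which makes it a common model of salt tolerance.

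The 4 loci with the highest mean 6 h ratios stood above the rest on the replicate 2 array of 6 h, but not on the replicate 1 array. There DEHA2A05500g, at 1.44, lay above DEHA2G03322g, and DEHA2E03894g, at 1.24, lay above DEHA2E14564g and DEHA2D17710g. DEHA2E06908g had log2 ratios of 0.11 and 0.75 on the replicate 1 and 2 arrays of 0.5 h, 0.25 and 0.26 at 3 h, and 1.55 and 2.38 at 6 h. DEHA2G03322g had -0.50 and -0.03 at 0.5 h, 0.16 and -0.51 at 3 h, and 1.41 and 2.02 at 6 h. For both loci each 6 h array lay above all 4 earlier arrays. DEHA2E14564g had -0.42 and 0.48 at 0.5 h, 0.14 and 0.02 at 3 h, and 1.00 and 2.35 at 6 h. DEHA2D17710g had 0.00 and 0.31 at 0.5 h, 0.12 and 0.32 at 3 h, and 0.93 and 1.63 at 6 h. These loci also held both 6 h arrays above all earlier ones, and in all 4 the replicate 2 array of 6 h was the higher one.

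As means over the 2 arrays of 6 h, the log2 ratio was 1.97 ± 0.59 for DEHA2E06908g (SD, n = 2), which is 3.92-fold. It was 1.71 ± 0.43 for DEHA2G03322g, 1.68 ± 0.96 for DEHA2E14564g and 1.28 ± 0.50 for DEHA2D17710g, or 3.28-fold, 3.20-fold and 2.43-fold. Among all genes of the array these 4 ranked 44, 83, 88 and 133 by their 6 h ratio, so genes outside the set held the top of that order. The SDs of the first 3 loci are larger than the gaps between their means, and their order is not resolved by 2 arrays.

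**Figure D1:**
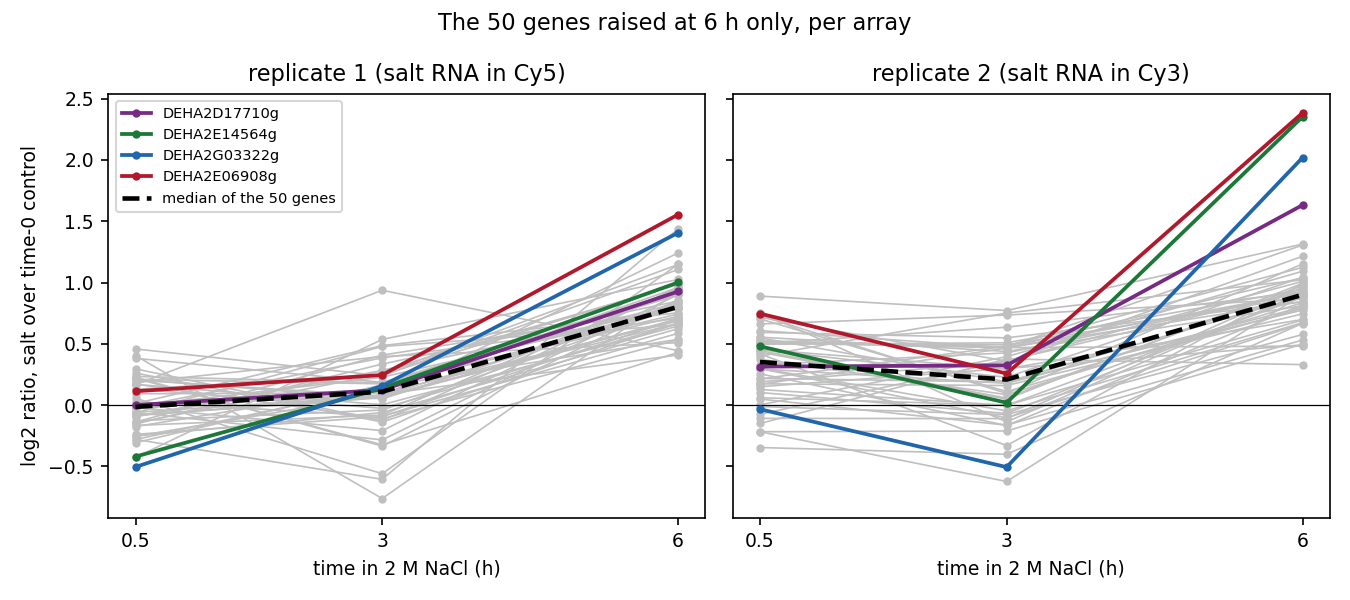
Log2 ratio of salt over time-0 control for each of the 50 genes at 0.5, 3 and 6 h in 2 M NaCl, with replicate 1 on the left and replicate 2 on the right; grey lines are single genes, 4 coloured lines are the loci with the highest 6 h means and the dashed line is the median. The median of the 50 genes moved from 0.11 at 3 h to 0.80 at 6 h in replicate 1 and from 0.21 to 0.90 in replicate 2, a rise that the choice of genes fixes.

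Below these 4 loci the 6 h means fell off in small steps, from 1.02 to 0.71. The 6 h log2 ratio of DEHA2C10934g was 1.02 ± 0.18 (SD, n = 2), or 2.02-fold, with 1.15 and 0.89 on the 2 arrays. Of the 50 genes, 6 reached a fold of 2, 33 lay below a log2 ratio of 0.9 and 19 of those below 0.8. The median of the 50 was 0.83. Most of the set is therefore made of changes smaller than 2-fold that lie close to the bound that chose them.

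Of the next loci in the order, DEHA2E05500g had 0.96 and 1.01 at 6 h, after -0.21 and 0.36 at 3 h. DEHA2G00242g had 0.65 and 1.31 at 6 h, after 0.00 and 0.47 at 3 h. DEHA2G15686g had -0.56 and 0.11 at 3 h, before 1.15 and 0.79 at 6 h. Its 3 h mean was the lowest in the set, -0.22 ± 0.47 (SD, n = 2), although its 2 arrays had opposite signs. That of DEHA2A14014g was close, at -0.21. DEHA2E03894g had 0.07 and -0.05 at 3 h and 1.24 and 0.67 at 6 h. DEHA2D16588g had 0.59 and 1.31 at 6 h, but its replicate 2 array was already high at 3 h, at 0.77, and at 0.5 h, at 0.89. DEHA2B04730g was steadier, with 0.18 and 0.47 at 3 h and 0.84 and 1.04 at 6 h.

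The 2 arrays of 6 h agreed most closely for DEHA2F23210g, at 0.80 on both, for DEHA2A14014g, at 0.90 and 0.92, for DEHA2G09878g, at 0.90 and 0.92, and for DEHA2D15312g, at 0.79 and 0.75. DEHA2A14014g was also the 1 gene of the 50 whose 3 h arrays both lay below 0, at -0.28 and -0.14. They differed most for DEHA2E14564g and for DEHA2A05500g. The 6 h arrays of DEHA2A05500g gave 1.44 and 0.33, after -0.60 and 0.38 at 3 h, so that the replicate 2 array was slightly lower at 6 h while the replicate 1 array went from below 0 to well above it. Large gaps were also seen for DEHA2E06908g and DEHA2D16588g, in both cases with replicate 2 higher. Over the set the gap between the 2 arrays at 6 h had a median of 0.27 and ran from under 0.01 to 1.35. Over all 6320 genes its median was 0.19. Replicate 2 was the higher 6 h array in 31 of the 50 genes, and in 3147 of all 6320.

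**Figure D2:**
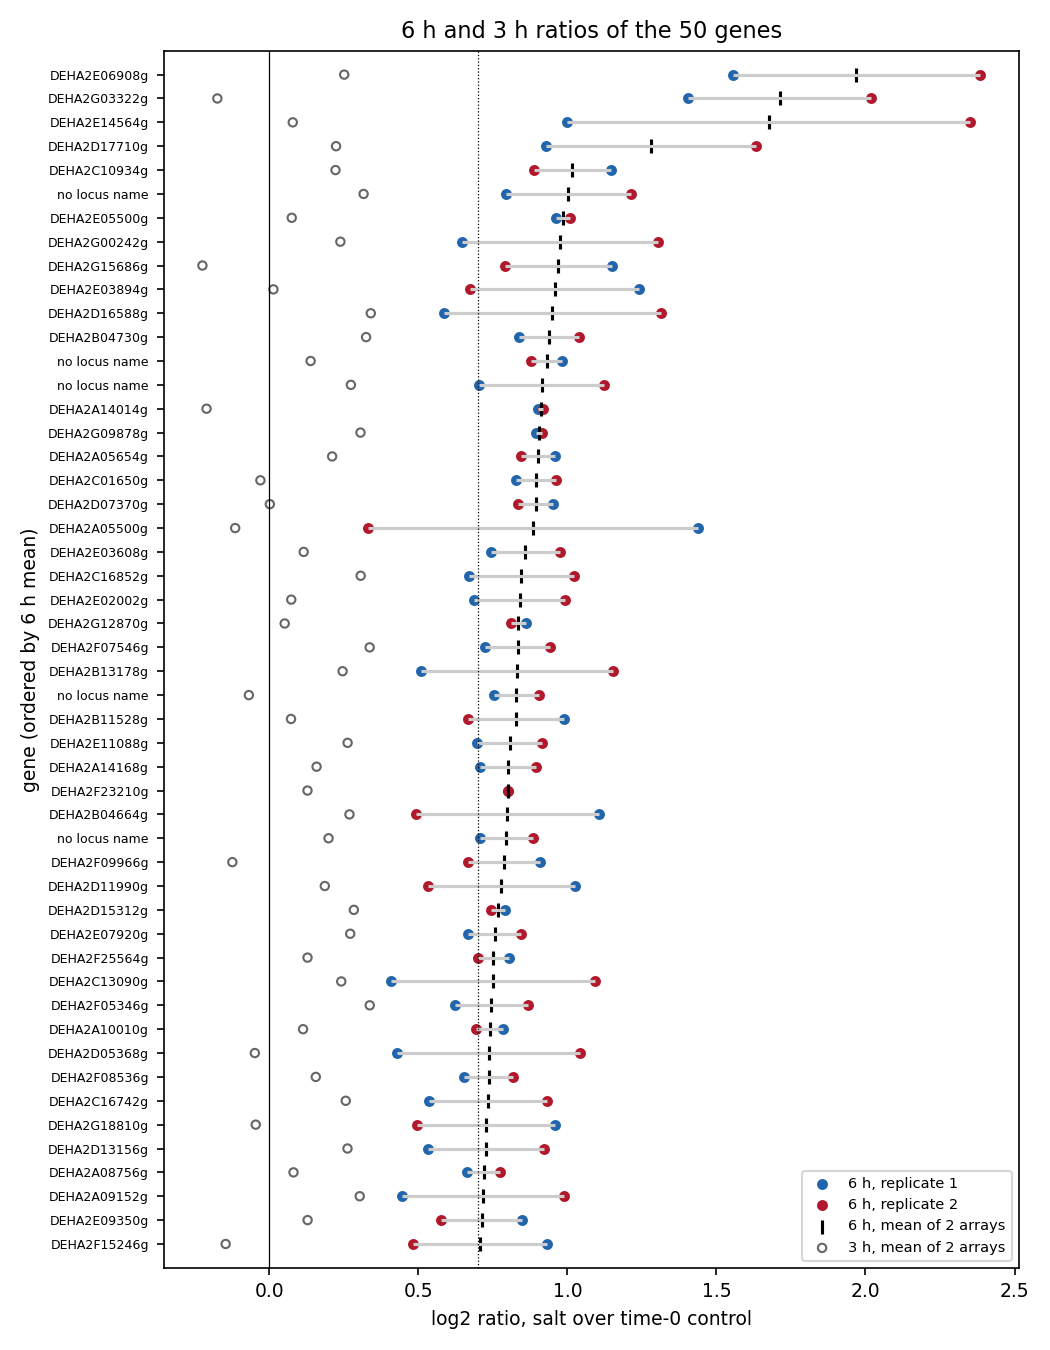
Log2 ratios of the 50 genes, one row per gene in the order of the 6 h mean; filled points are the 2 arrays of 6 h joined by a line, the bar is their mean, open circles are the 3 h mean and the dotted line marks the bound of 0.7. The means of the 4 top rows run from 1.28 to 1.97, and their points stand apart in replicate 2 alone. In 24 of the 50 rows both 6 h points reach 0.7.

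Of the 20 named loci with the highest 6 h ratios, the remaining ones lay between 0.84 and 0.91 on average. DEHA2A05654g had 0.96 and 0.84 at 6 h, after -0.13 and 0.55 at 3 h. DEHA2C01650g had 0.83 and 0.96, after 0.05 and -0.11, and DEHA2D07370g had 0.95 and 0.84, after -0.08 and 0.09. In these 2 loci the 3 h arrays lay near 0 in both replicates. DEHA2E03608g had 0.74 and 0.98 at 6 h, after 0.17 and 0.06 at 3 h. DEHA2C16852g had 0.67 and 1.02 at 6 h, after -0.14 and 0.75, and DEHA2E02002g had 0.69 and 0.99, after 0.10 and 0.05. Replicate 2 of DEHA2C16852g was thus already past 0.7 at 3 h, and DEHA2E02002g was near 0 in both replicates.

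The bound of 0.7 at 6 h cut through a continuous run of values. Just inside it were DEHA2F15246g and DEHA2E09350g at 0.71 and DEHA2A09152g and DEHA2A08756g at 0.72. Just outside, and within the other bounds, were DEHA2D06182g at 0.70, DEHA2D01188g and DEHA2G07018g at 0.69 and DEHA2F25124g at 0.68. The SDs of these 8 loci at 6 h ran from 0.08 to 0.67, far above the steps between them. At the 3 h bound, DEHA2D16588g, DEHA2F05346g and DEHA2F07546g at 0.34 and DEHA2B04730g at 0.32 were inside. DEHA2C11462g at 0.35, DEHA2F20680g at 0.36, DEHA2E20658g at -0.37 and DEHA2F10494g at 0.39 were outside, with 6 h ratios of 0.94, 0.88, 1.04 and 1.27. DEHA2F10494g thus had a 6 h ratio close to that of DEHA2D17710g and missed the set by its 3 h mean.

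The 50 genes are the smaller portion of the genes that were high at 6 h. In all 340 genes had a 6 h mean of at least 0.7 with both arrays above 0. Of these, 204 (60%) also had a 3 h mean of 0.7 or above, 70 (20.6%) lay between 0.35 and 0.7 at 3 h, and 6 (1.76%) lay at -0.35 or below. The remaining 60 (17.6%) were within 0.35 of 0 at 3 h, and 10 of these left the set because their 0.5 h mean was 0.5 or above. The same bounds with 3 h and 6 h exchanged, which ask for a high ratio at 3 h and a 6 h mean near 0, held 60 genes.

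**Figure D3:**
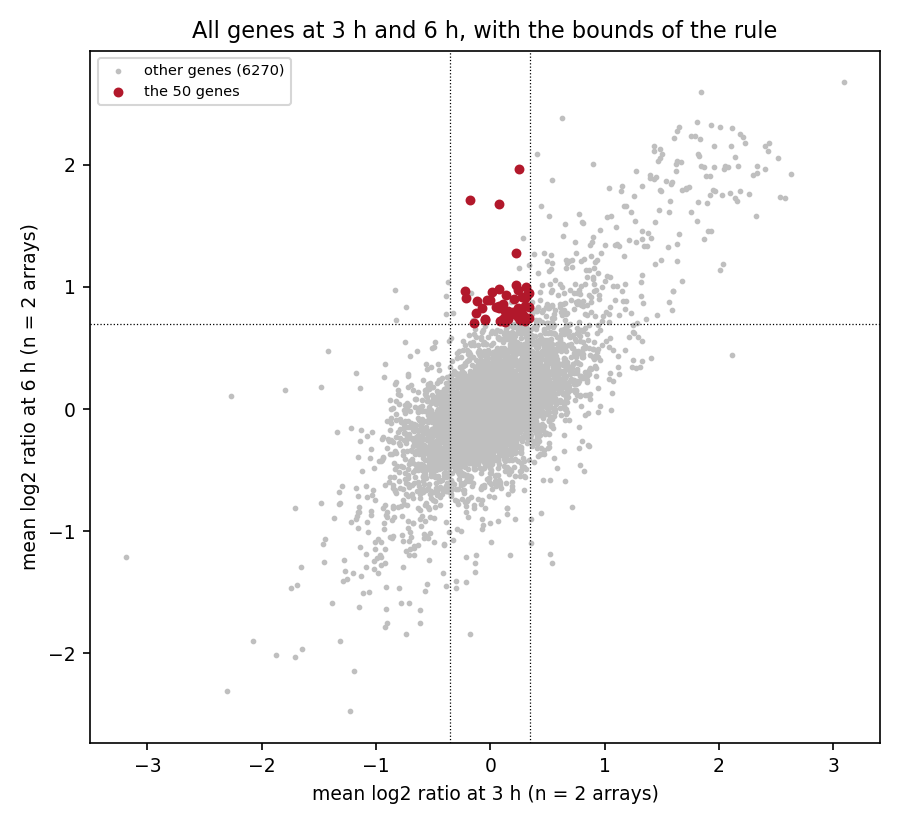
Mean log2 ratio at 6 h against that at 3 h for all 6320 genes (n = 2 arrays per time); red points are the 50 genes and dotted lines are the bounds at 3 h and 6 h. The 50 genes fill a corner of one continuous cloud, with 4 of them above a 6 h ratio of 1.2.

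"Near 0 at 3 h" held for the mean more often than for the single arrays. The 2 arrays of 3 h had opposite signs in 29 of the 50 genes, both were above 0 in 20 and both below 0 in 1. Over all genes 2163 of 6320 had opposite signs. Both 3 h arrays were within 0.35 of 0 in 20 of the 50. The replicate 2 array reached 0.35 at 3 h in 20 genes and the replicate 1 array in 7. At 3 h the replicate 2 array was at 0.7 or above for 3 genes, DEHA2D16588g, DEHA2C16852g and DEHA2F05346g, the last at -0.06 and 0.73, and the replicate 1 array for 1, DEHA2A09152g.

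Among genes with a locus name, the largest gaps between the 3 h arrays belonged to DEHA2A09152g, DEHA2F15246g, DEHA2A05500g and DEHA2C16852g. DEHA2A09152g had 0.94 and -0.33 at 3 h and 0.44 and 0.99 at 6 h. Its replicate 1 array was thus lower at 6 h than at 3 h, and without the replicate 2 array of 3 h its 6 h minus 3 h difference was -0.22. DEHA2F15246g had -0.76 and 0.47 at 3 h and 0.93 and 0.48 at 6 h, so that its replicate 2 array was almost the same at both times. In both loci the 6 h mean exceeded the 3 h mean through 1 replicate. The lower 6 h array lay above the higher 3 h array in 43 of the 50 genes, and above all 4 earlier arrays in 40. The rule favours such a separation, and in limma 0% of the 5966 tested genes were called for 6 h minus 3 h, so nothing is read from these counts.

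At 0.5 h the set was split by replicate. The median of the 50 genes was -0.01 on the replicate 1 array and 0.35 on the replicate 2 array, and replicate 2 was higher in 44 of the 50. Among all genes it was higher in 3275 of 6320. No gene of the set reached 0.5 on the replicate 1 array and 16 did on the replicate 2 array. Examples are DEHA2A14014g, with -0.06 and 0.75, DEHA2E05500g, with -0.02 and 0.72, and DEHA2F05346g, with -0.25 and 0.66. In these loci a raised ratio was present at 0.5 h on 1 of the 2 arrays. DEHA2F09966g was low on both arrays, at -0.28 and -0.35, and had the lowest 0.5 h mean of the set, -0.31 ± 0.05 (SD, n = 2), before 0.91 and 0.67 at 6 h.

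The replicate 1 array of 3 h stood apart from the others in its spike-in controls. The ratios of 10 spike-in RNAs, added before labelling, spanned 1.64 on the log2 scale on the replicate 1 array of 3 h and from 3.21 to 4.20 on the other 5 arrays. The SD of all genes' ratios was 0.30, 0.38 and 0.41 on the replicate 1 arrays of 0.5, 3 and 6 h and 0.33, 0.61 and 0.55 on those of replicate 2, so the replicate 1 array of 3 h lay within the range of the others by this measure. Between the 2 arrays of a time, ratios correlated across genes at r = 0.51 at 0.5 h, 0.62 at 3 h and 0.73 at 6 h, and genes are not independent replicates. By another measure the replicate 2 array of 3 h stood apart. Its share of probes well above background for control RNA was 93.4%, against 62.4% to 71.7% on the other 5 arrays. The part of the narrow spike-in span or of this high share in the membership was not tested. With the replicate 1 array of 3 h left out, 37 genes met the rule, 27 of them among the 50. With the replicate 2 array left out 75 met it, 40 of them among the 50.

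In limma, fitted to 5966 genes with all 3 times in 1 model, 35 of the 50 genes were called higher at 6 h at a Benjamini-Hochberg adjusted p of 0.05, beside 285 genes or 4.78% of all those tested. The adjusted p-values of the 50 ran from 0.00836 for DEHA2E06908g to 0.187 for DEHA2A09152g. The rule used this contrast, so the count describes the members and tests nothing. Among the top loci the adjusted p in limma was 0.0113 for DEHA2G03322g, 0.0328 for DEHA2E14564g and 0.0132 for DEHA2D17710g. With a replicate block in the fit 45 of the 50 were called and 735 genes in all, against 444 in both directions without it. The calls of the 50 fell to 0 without the replicate 2 array of 6 h, to 5 without replicate 1 and to 19 without either 0.5 h array, and stood at 45 without either 3 h array. In those fits 0, 140, 220 and 769 genes were called in all. The calls of all 4 top loci ended without the replicate 2 array of 6 h, and that of DEHA2E14564g also ended with no background correction, with the deposited values and without either 0.5 h array.

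At the earlier times 0 of the 50 genes were called, which the bounds of the rule favour. All genes called in either direction made up 5.95% of those tested at 3 h and 0.0838% at 0.5 h. With a replicate block these were 854 genes against 355 at 3 h and 17 against 5 at 0.5 h, and leaving out 1 array moved the 3 h count to between 28 and 1025. At an unadjusted p under 0.05, 1 of the 50 was different from the control at 3 h and 5 at 0.5 h in limma, beside 28.5% and 9.05% of all genes tested. The direct difference between 6 h and 3 h, which bears on the word "only", called 0 genes (0%) in limma, with 548 genes (9.19%) at an unadjusted p under 0.05. Of the 50 genes 35 were among those 548, and their adjusted p-values ran from 0.43 to 0.738. The difference between 6 h and 0.5 h called 0 of the 50 and 0.0168% of all genes in limma. At an unadjusted p under 0.05 it held 33 of the 50 and 8.7% of all genes. The bounds of the rule favour a low unadjusted p for both differences, so nothing is read from the 35 and the 33. A level at 6 h different from that at 3 h or 0.5 h was thus not shown for any single one of the 50 genes after adjustment.

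The largest differences of 6 h minus 3 h were those of the 3 top loci. They were 1.89 for DEHA2G03322g, 1.72 for DEHA2E06908g and 1.60 for DEHA2E14564g on the log2 scale. DEHA2G15686g followed at 1.19 and DEHA2A14014g at 1.12, both with a 3 h mean below 0, ahead of DEHA2D17710g at 1.06 and DEHA2A05500g at 1.00. Over the set the difference had a median of 0.68 and ran from 0.41 to 1.89, and over all genes the median was 0.00.

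A ratio can move because the salt RNA or the control RNA moved, so the 2 channels were also read separately after their brightness was aligned between arrays. The rule used the ratio of these same channels at 3 h and 6 h, so a higher salt level or a lower control level at 6 h is largely fixed by the choice of genes and is given as a description. From 3 h to 6 h the level in the salt channel was higher for 49 of the 50 genes, with a median difference of 0.51 on the log2 scale, while over all genes the median was -0.01 and 3088 of 6320 were higher. The salt channel was higher on both array pairs in 41 of the 50. The control channel holds RNA of time 0 on every array, and it was lower at 6 h than at 3 h for 39 of the 50, with a median of -0.16. Over all genes 3188 of 6320 were lower. This shift in the control was -0.25 in replicate 1 and -0.04 in replicate 2. Between the 0.5 h and 6 h arrays the control of the 50 genes differed by a median of -0.01, and between 0.5 h and 3 h by 0.15. It was higher at 3 h than at 0.5 h in 38 of the 50, beside 3000 of all 6320. By these medians the control channel was brightest on the 3 h arrays, but in replicate 2 it was higher at 6 h than at 3 h in 23 of the 50. A brighter control gives a lower ratio by construction, so a choice of genes by a low 3 h and a high 6 h ratio favours this.

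In the 4 top loci the salt channel changed by more than the control on both array pairs, narrowly so in replicate 2 of DEHA2D17710g. From 3 h to 6 h the salt channel of DEHA2G03322g changed by 1.42 in replicate 1 and 2.03 in replicate 2, and its control by 0.18 and -0.49. DEHA2E06908g had 0.75 and 2.37 in the salt channel and -0.56 and 0.24 in the control. DEHA2E14564g had 1.28 and 2.01 in the salt channel and 0.42 and -0.32 in the control, and DEHA2D17710g had 0.83 and 0.67 against 0.02 and -0.63. In 45 of the 50 genes the mean salt channel rose by more than any fall of the mean control. These include the 11 genes whose mean control was higher at 6 h, which had no fall to exceed. DEHA2A09152g was the 1 gene whose mean salt level was not higher at 6 h, with -0.09 in the salt channel and -0.50 in the control. In DEHA2F08536g, DEHA2D11990g and DEHA2E09350g the mean control fell by 0.41, 0.39 and 0.38, and the salt channel was higher by 0.17, 0.20 and 0.21.

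**Figure D4:**
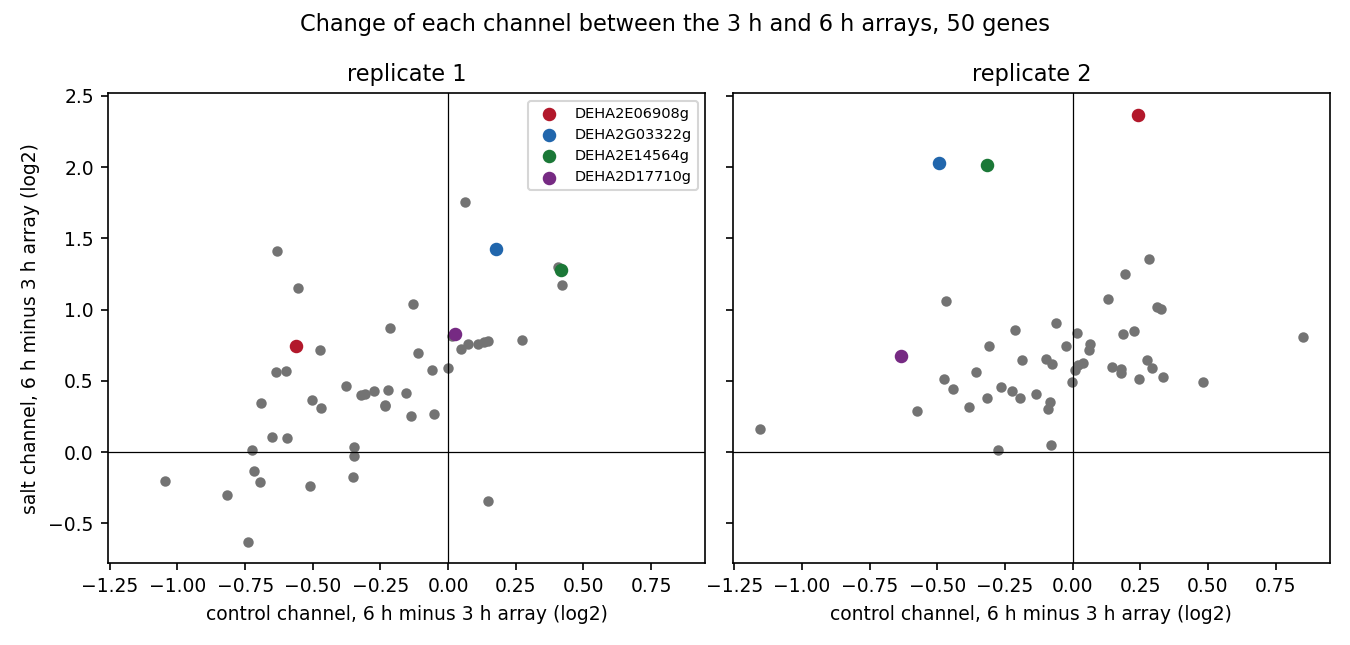
Change of the salt channel against change of the control channel between the 3 h and 6 h arrays for the 50 genes, in log2 units after alignment of brightness between arrays, with replicate 1 on the left and replicate 2 on the right. Points above the horizontal line had a higher salt signal at 6 h, which holds for 41 genes in replicate 1 and 50 in replicate 2, and points left of the vertical line had a lower control signal.

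In unstressed cells the 50 genes gave bright signals more often than not. The median of their control level, averaged over the 6 arrays, lay at the 73.6th percentile of all genes, and 8 of the 50 lay below the median gene. The range went from the 20.8th to the 98.5th percentile. For the 200 genes at or above 0.7 at both 3 h and 6 h, with all arrays of these times above 0, the median lay at the 77.9th percentile. For the 60 genes that met the bounds with 3 h and 6 h exchanged it lay at the 52.7th. The background correction adds an offset of 50 to each signal, which draws the ratios of dim spots toward 0, and its part in these percentiles was not tested. DEHA2G12870g, DEHA2G15686g, DEHA2A05500g and DEHA2A05654g had the highest control levels, at the 98.5th, 98.3rd, 97.6th and 96.1st percentiles. The 6 h log2 ratio of DEHA2G12870g was 0.84 ± 0.04 (SD, n = 2), after -0.33 and 0.44 at 3 h.

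The lowest control levels were those of DEHA2E07920g, DEHA2F09966g, DEHA2E11088g and DEHA2C01650g, at the 20.8th, 31.1st, 36.3rd and 39.4th percentiles. In the 12 control readings of a gene, 2 probes on 6 arrays, the scanner software marked 4 as well above background for DEHA2E07920g, 6 for DEHA2F09966g, 8 for DEHA2E11088g and 9 for DEHA2C01650g. At 6 h this held for 1 of the 4 readings of DEHA2E07920g and 1 of 4 of DEHA2F09966g. Their 6 h ratios, 0.76 ± 0.13 and 0.79 ± 0.17 (SD, n = 2), rest on a control close to background. Of the top loci DEHA2E06908g had 9 of 12 control readings above background and DEHA2G03322g 10 of 12, with all 4 of those of 6 h among them, while DEHA2E14564g and DEHA2D17710g had all 12. Both probes were well above background in both channels of all arrays for 41 of the 50 genes, beside 2847 of all 6320. In the salt channel at 6 h this held for all 50, beside 4531 of 6320, and the rule favours genes with a high salt signal there. No reading of the set was saturated.

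The 2 probes of a gene, which read the same labelled RNA at different places of the transcript, agreed for most of the set. Both lay above 0 at 6 h in all 50 genes, and both reached 0.7 in 39. The 6 h mean that chose the genes averages these same 2 probes. The choice of genes therefore favours both counts, and nothing is read from them. The gap between the 2 probes had a median of 0.07, against 0.11 over all genes. It was largest for DEHA2E06908g, whose probes gave 2.15 and 1.79, for DEHA2E07920g, with 0.92 and 0.59, for DEHA2C13090g, with 0.91 and 0.59, and for DEHA2E11088g, with 0.94 and 0.67. The probes of DEHA2G03322g gave 1.72 and 1.70 and those of DEHA2D17710g 1.29 and 1.26. None of the 50 had a probe sharing 25 bases with a probe of another gene, beside 93 of the 6320 genes of the array. Probes were compared with other probes and not with whole transcripts, so binding to other transcripts was not tested. The GC content of the probes had a median of 40.4%, against 38.3% over all genes.

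Along the chromosomes the 45 named genes were scattered. They lay on all 7 chromosomes, from 4 on chromosome B to 9 on E. As a share of the loci of a chromosome on the array they ran from 0.638% on B to 1.28% on A, against 0.841% overall. None were direct neighbours. The closest were DEHA2B04664g and DEHA2B04730g with 2 loci between them, and DEHA2C16742g and DEHA2C16852g with 4. Those first 2 loci had 6 h ratios of 0.80 and 0.94 and the other pair 0.73 and 0.85. Within 20 loci of a chromosome end lay 1 gene of the set, DEHA2G00242g, the seventh from its end, and 220 of all 5348 named loci.

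The genes next door were mostly not raised at 6 h. Of 80 next-door loci with a ratio, 5 had a 6 h mean of 0.7 or above and 36 lay below 0, with a median of 0.07. Over all 5348 named loci 322 (6.02%) were at 0.7 or above and 2657 (49.7%) below 0, so a share near the background is all these counts show. The neighbours of DEHA2G03322g had 0.44 and -0.16 at 6 h, far below its 1.71. Those of DEHA2E06908g had 0.67 and 0.20. One side of DEHA2E14564g had a ratio of 0.46, and on the other side DEHA2E14586g is not analysed here. DEHA2D17710g lay beside DEHA2D17732g, which had 0.94 at 6 h but also 0.60 at 3 h, and DEHA2D17688g on its other side had 0.17.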

How the data were processed

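The files hold the scanner output of 6 Agilent 2-colour arrays. Per the file headers, spot intensities came from Feature Extraction 9.1.3.1, and the authors worked from median intensities, per the labels. The deposited log10 ratios of the scanner output were not used. A deposited series table, made with limma by the submitters' processing notes, was taken to hold log2 ratios of salt over control, because it correlated at r from 0.988 to 0.996 with loess ratios without background correction. Medians of its columns, in the order 0.5, 3 and 6 h, were -0.00121, 0.00381 and 0.0106 in replicate 1, and 0.00289, -0.0109 and 0.00272 in replicate 2. How it was normalized is not given in the sources used.

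From the median intensities, normexp (offset 50) removed background and loess normalized each array, in limma 3.58.1 under R 4.3.3. Control spots had weight 0 in the loess, and 18 outlier values were left out. Ratios were averaged over the 2 probes of a gene, and the set was selected on these ratios by the stated bounds. The members and lists were chosen with earlier results of these data known. A gene was tested where a probe was well above background in 2 or more of its 12 channel values, which kept 5966 of 6320 genes and all 50 members. One limma model (lmFit, eBayes) of all 6 arrays had a coefficient per time, with calls at a Benjamini-Hochberg adjusted p of 0.05, and was tested on simulated data. Precision is limited by having 2 arrays per time. The share of probes well above background ran from 76.4% to 91.9% for salt RNA and from 62.4% to 93.4% for control RNA. The 93.4% was that of the replicate 2 array of 3 h. Channel levels were aligned between arrays with Aquantile. As a check of pairing, deviations from the mean of each time were compared between arrays of one replicate number. They correlated at 0.21 (0.5 h and 3 h), 0.32 (0.5 h and 6 h) and 0.35 (3 h and 6 h). Arrays of one number also share a dye orientation, so these values cannot tell shared cultures from dyes. The labels name no shared culture. Arrays of one number were paired for the channel differences. The fit reported has no replicate block, and counts with a block are given beside it.

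Accessions matched a locus name in the ASM644v2 reference table for 5348 of 6320 genes. The files name no build, so the table served for names and order alone and no coordinates are given. Named loci were the 20 with the highest 6 h ratio, those at the bounds, and the extremes of 3 h ratio, of the gaps between arrays and between probes, and of control level. Other loci were named after their values were seen. Promoter motifs and gene groups by role were not analysed here.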

Additional observations from a re-analysis of the deposited data

Results flagged for a closer look

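In 1 gene both arrays of 3 h lay below 0 and both arrays of 6 h above it. DEHA2A14014g differed by 1.12 on the log2 scale between these times, with -0.28 and -0.14 at 3 h and 0.90 and 0.92 at 6 h. In 6 further loci both arrays of 0.5 h lay below 0 and both arrays of 6 h above it. The difference was 1.98 for DEHA2G03322g, 1.1 for DEHA2A05500g, 1.1 for DEHA2F09966g, 0.858 for DEHA2C16742g, 0.85 for DEHA2G18810g and 0.796 for DEHA2E09350g. The rule for the set asks for values above 0 at 6 h, so the 6 h side of each pattern is fixed by the choice of genes. These opposite signs were not tested as such, and none of the 7 differences passed the adjusted threshold in limma.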

How the results depend on the processing

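The membership depended on the normalization and the bounds. The set held 50 genes and became 147 with the scanner software's processed signals and 148 with median centring without loess, of which 33 and 32 were among the 50. It held 35 genes with no background correction and 37 with the deposited values, 27 and 28 of them shared. A 6 h bound of 0.8 left 31 genes and one of 0.6 gave 88, and the bounds applied to each array in place of the mean left 6, among them DEHA2C01650g, DEHA2D07370g, DEHA2D17710g, DEHA2E03608g and DEHA2F23210g. Leaving out 1 array gave from 34 to 75. Of the 50, 8 met the rule in all 5 other settings of background, normalization, values or probe, and each of the 50 met it in at least 1. DEHA2E14564g and DEHA2D17710g were among the 8. DEHA2E06908g left the set with the processed signals and with median centring, and DEHA2G03322g with the processed signals, each by its 0.5 h value and DEHA2E06908g with the processed signals also by its 3 h value, while their 6 h ratios were higher there than reported.

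Members called at 6 h, 35 as reported, became 20 with no background correction, 19 with processed signals, 21 with deposited values and from 0 to 45 with 1 array left out. For the counts over all genes, no background correction gave 255 at 6 h, 57 at 3 h, 1 at 0.5 h and 0 for 6 h minus 0.5 h. Processed signals gave 476 at 6 h, 231 at 3 h, 3 at 0.5 h and 2 for 6 h minus 0.5 h. With these signals the 6 h calls over all genes thus rose from 444, while those of members fell from 35 to 19. Median centring gave 234 at 3 h, 1 for 6 h minus 3 h and 3 for 6 h minus 0.5 h. At 6 h its 462 calls were 412 higher, against 285 of 444, and 42 members were called. Deposited values gave 236, 44, 1 and 0. Trended and robust moderation gave 185, 0 and 3 at 6, 3 and 0.5 h, 4 for 6 h minus 3 h and 3 for 6 h minus 0.5 h. The replicate block gave 735, 854 and 17, and 3 for 6 h minus 0.5 h. That last count was 2 with the brighter probe and 0 with no filter on dim probes. Leaving out 1 array gave from 0 to 769 at 6 h, 28 to 1025 at 3 h, 0 to 7 at 0.5 h and 0 to 2 for 6 h minus 0.5 h. The causes were not tested. The 6 h minus 3 h difference of DEHA2A09152g reversed to -0.22 without the replicate 2 array of 3 h and was 1.05 without the replicate 1 array. The 6 h ratios of the named loci kept their sign in every setting run. The rule fixes this wherever the same ratios were fitted again or 1 array was left out, so nothing is read from it. Of 715 comparisons 148 lost the call while 41 gained it.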
